A study of Capra hircus with 10 samples.

Results

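The 7 circular RNAs (circRNAs) described here come from genes listed here under the sarcomere and striated muscle: MYBPC1, MYPN, FHOD3, STAC, PALLD, ATP2A1 and PAX7. They were taken by gene name from the annotation of 1327 circRNAs in goat intramuscular fat cells, and each of the 7 genes has 1 circRNA there. The genes were chosen by their names and function after junction reads of several of them had been seen to be higher in adipocytes. These junction reads, and with them the non-junction reads of the same contrast, count as used in the choice, so the IMA minus IMPA differences of the 7 are a description with no test. The question asked was whether linear RNA at the same loci moved with the circles. Cells were isolated from the fat within the longissimus dorsi muscle of 3 male Jianzhou goats (wild type, 7 days old) and sequenced as RNA depleted of ribosomal RNA. Intramuscular preadipocytes (IMPA, 5 libraries) were taken on day 0, and intramuscular adipocytes (IMA, 5 libraries) on day 3 of adipogenic differentiation in a medium with serum and 50 μmol/L oleic acid. The labels do not tie libraries to goats, so SDs here describe libraries, and some libraries of a group share an animal. In bulk RNA, fewer cells of a type and less RNA per cell cannot be told apart.

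A circRNA forms when a downstream splice donor joins an upstream splice acceptor, and reads over that join are its junction reads. Non-junction reads are, as the caller CIRI2 defines them, reads that cross the ends of the circle without the join, and they come mainly from linear RNA of the host gene. The sarcomere is the contractile unit of striated muscle, with thick filaments of myosin, thin filaments of actin and Z discs that anchor the thin filaments, and its genes are best known from myofibres and not from fat cells. Satellite cells, the stem cells of muscle, lie beside those fibres.

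The primer pairs that the study lists under the names of the MYBPC1 and MYPN circles are shown because these are the 2 with calls in junction reads below. Their place in the exons was not checked here.
circ_0002854 (MYBPC1) forward, 5′ to 3′: ccgtcaatgaccttgggac
circ_0002854 (MYBPC1) reverse, 5′ to 3′: cactgcagttcagggtagca
circ_0011446 (MYPN) forward, 5′ to 3′: ttcagcagtaccccaaaccc
circ_0011446 (MYPN) reverse, 5′ to 3′: aaggcttcagcaatggtcagt

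All 7 circles were annotated as exonic and lie on 7 different chromosomes, with positions as in the deposited table, whose genome build is not given in the sources used here. The MYBPC1 circle (circ_0002854, chr5:64143969-64145981, plus strand) joins 2 exons of 137 and 187 nt into 324 nt. The MYPN circle (circ_0011446, chr28:21013224-21021880, minus strand) holds 4 exons and 415 nt. The STAC circle (circ_0009924, chr22:10094533-10113699, plus strand) holds 3 exons and 255 nt within a span of 19167 bp. Each of these begins and ends at exon boundaries.

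The PALLD circle (circ_0004538, chr8:768135-771034, plus strand) has 2 exons and 430 nt. The ATP2A1 circle (circ_0010805, chr25:25843362-25844208, minus strand) packs 3 exons and 324 nt into 847 bp, a span longer than that of only 6.18% of circRNAs. The PAX7 circle (circ_0001102, chr2:2081497-2090753, plus strand) has 3 exons and 569 nt, longer than 98.0% of circRNAs. The median spliced length was 324 nt over the 7 and 320 nt over all circRNAs.

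The FHOD3 circle (circ_0010443, chr24:20812598-20853568, minus strand) was different in its annotation. Its span of 40971 bp is longer than that of 96.5% of circRNAs, but the 2 exons listed for it, 239 nt together, end at 20822236, well before the circle does. Both ends lay on listed exon ends in 996 of 1274 exon-derived circRNAs (78.2%) and in 6 of the 7 described here. The spliced length of the FHOD3 circle is therefore that of the listed exons alone.

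Junction reads per library numbered 11421 to 15553 among IMPA and 9622 to 12499 among IMA, so a circle of the 7 rests on a few reads per library. Levels of junction reads are given as normalised TPM, which is reads per 1000000 junction reads after TMM scaling, with no length term. No count of 1 occurs, since the smallest count above 0 is 2. Non-junction reads were given only where the junction was called: all 1345 values for libraries with a junction count of 0 are missing, and they are not zeros. They are normalised per 1000000 non-junction reads at the 690 loci with a value in all 10 libraries. The circular share is 2 times the junction reads as a percent of that number plus the non-junction reads. The median share over all loci of a library was itself higher in IMA (9.45% to 10.8%) than in IMPA (7.44% to 8.60%). Every IMA library also had fewer uniquely mapped reads than every IMPA library in the study's mapping totals. Clean read totals overlapped between the groups, and a smaller part of them was mapped in every IMA library than in any IMPA library. The part of depth and mapping in the results was not tested.

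The adipocyte label of the cells could not be checked with the genes listed for it. None of 19 adipocyte, 6 endothelial, 5 macrophage and 9 smooth muscle and myofibroblast marker genes has a circRNA in the table. PLIN2, which coats lipid droplets in adipocytes and other cells, was not in that list and was added after its values were seen. At its circle circ_0004263 the linear reads were 638 to 1010 in IMPA and 1932 to 2416 in IMA, without overlap, a log2 difference of 1.93 (SE 0.12, edgeR's adjusted p = 1.51e-14) that was the highest of the 690 loci with complete values. Its junction reads were 2 to 4 in IMPA and 6 to 10 in IMA (log2 difference 1.15, SE 0.34, edgeR's adjusted p = 0.0759). Since PLIN2 was picked after its values were seen, its rank and adjusted p are no check of the label. The part of the oleic acid in the IMA medium was not tested. Of 16 genes listed for fibroblasts and matrix, 4 (COL5A1, COL5A2, FBN1 and TCF4) have 5 circRNAs. Whether TCF4 marks fibroblasts was not checked. The summed level of the 5 was 2165 to 3714 normalised TPM over the IMPA libraries and 3101 to 4798 over the IMA libraries. TCF4 had the highest junction counts, up to 21 per IMPA library and up to 27 per IMA library. The COL5A1 circle had at most 3 per IMPA library and at least 6 per IMA library. The counts of the other circles overlapped between the groups. The part of these genes in the results below was not tested.

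**Figure D1:**
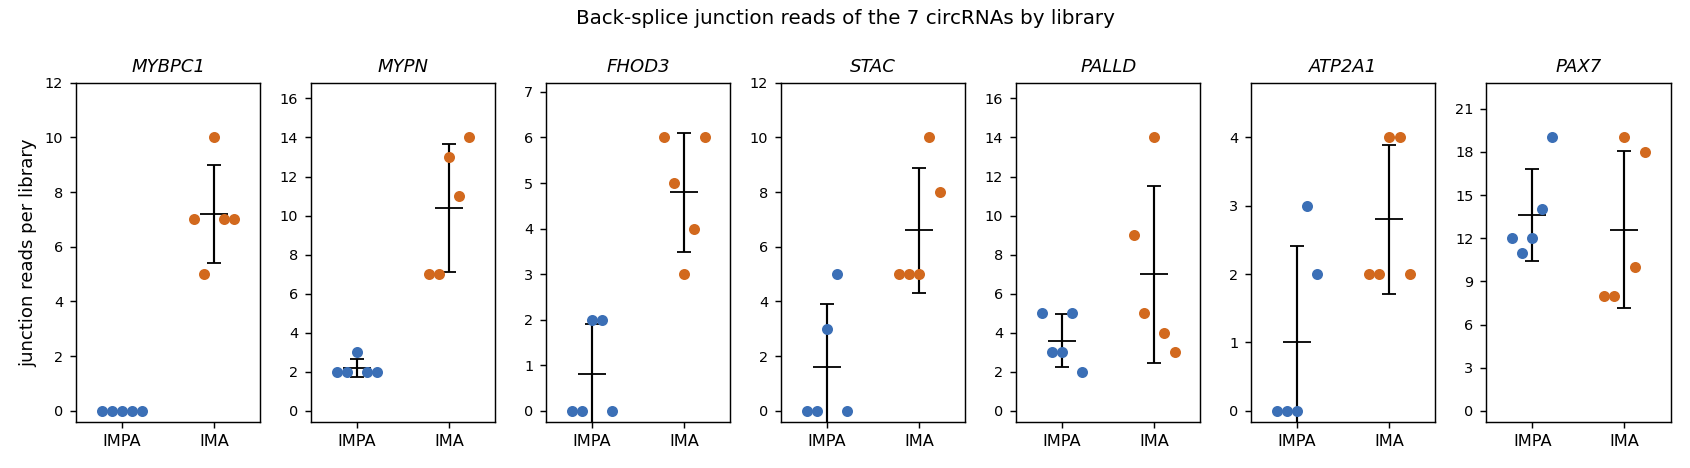
Junction reads in each library, 1 panel for each of the 7 circRNAs with its own y axis in reads. Points are libraries (5 IMPA, 5 IMA), the horizontal mark is the group mean and the bar 1 SD, clipped below 0. MYBPC1 was at 0 in all IMPA libraries and at 5 to 10 reads in IMA, while PAX7 overlapped between groups.

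MYBPC1 encodes slow myosin-binding protein C, which lies along the thick filament. Its circle had 0 junction reads in all 5 IMPA libraries and 7, 5, 10, 7 and 7 reads in IMA libraries 1 to 5. The groups did not overlap, as for 2.24% of circRNAs tested with every IMA library above every IMPA library. With 0 reads in IMPA, the filter of reads in at least 5 libraries admitted this circle only with reads in all IMA libraries. Its separation was therefore fixed by the filter, and nothing is read from that share. The IMA level was 651 ± 122 normalised TPM (SD, n = 5), at least 2.83-fold above the limit that 3 reads per IMPA library set (mean 230 normalised TPM). This bound holds only if the zeros were counts of no reads and not circles that were left out by the calling.

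Linear reads at MYBPC1 were far more abundant than the circle. The IMA libraries held 1429, 1317, 1503, 1187 and 1357 non-junction reads, and no IMPA library has a value, so whether linear MYBPC1 differed between the groups cannot be read from these files. Within each IMA library the locus ranked 17th to 21st in non-junction reads among 1110 to 1189 loci. The circular share was 1.04% ± 0.211 in IMA (0.754% to 1.31%). In any IMA library only 1.68% to 4.79% of loci had a lower share, which places MYBPC1 among the loci where nearly all reads were linear.

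MYPN encodes myopalladin, a protein of the Z disc and the adjoining I band. Its circle was read in every library, with 2, 2, 3, 2 and 2 junction reads in IMPA and 7, 7, 13, 11 and 14 in IMA. The lowest IMA library lay above the highest IMPA library, as for 2.24% of circRNAs tested. Nothing is read from that share, since these reads count as used in the choice of genes. The level went from 168 ± 34.8 to 951 ± 309 normalised TPM (SD, n = 5 each). The ratio of the normalised summed reads (52 against 11) was 5.67, with an exact 95% interval of 2.92 to 12 that covers counting error only. This interval and those given below pool libraries that differed by more than counting noise, so they are too narrow for a group difference. They are no test, since these reads count as used in the choice of genes.

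Linear reads of MYPN were measured in every library and were higher in IMA after normalisation. Raw non-junction reads were 109, 86, 120, 114 and 139 in IMPA and 108, 140, 178, 126 and 135 in IMA. These raw values overlapped, but the IMA libraries held fewer non-junction reads over the 690 loci (128138 to 173047, against 177795 to 244354 in IMPA). After normalisation the IMPA libraries lay between 470 and 578 per 1000000 and the IMA libraries between 765 and 1048, without overlap, as for 12.2% of the 690 loci with IMA above. The mean was 537 ± 43.4 in IMPA and 970 ± 117 in IMA, 1.81 times as high.

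The MYPN circle differed more than its linear reads did. The circular share was 3.54%, 4.44%, 4.76%, 3.39% and 2.80% in IMPA and 11.5%, 9.09%, 12.7%, 14.9% and 17.2% in IMA. All IMA shares lay above all IMPA shares, with means of 3.79% ± 0.803 and 13.1% ± 3.11. Among the 690 loci with complete values, 4.93% had a share that was likewise higher in every IMA library.

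**Figure D2:**
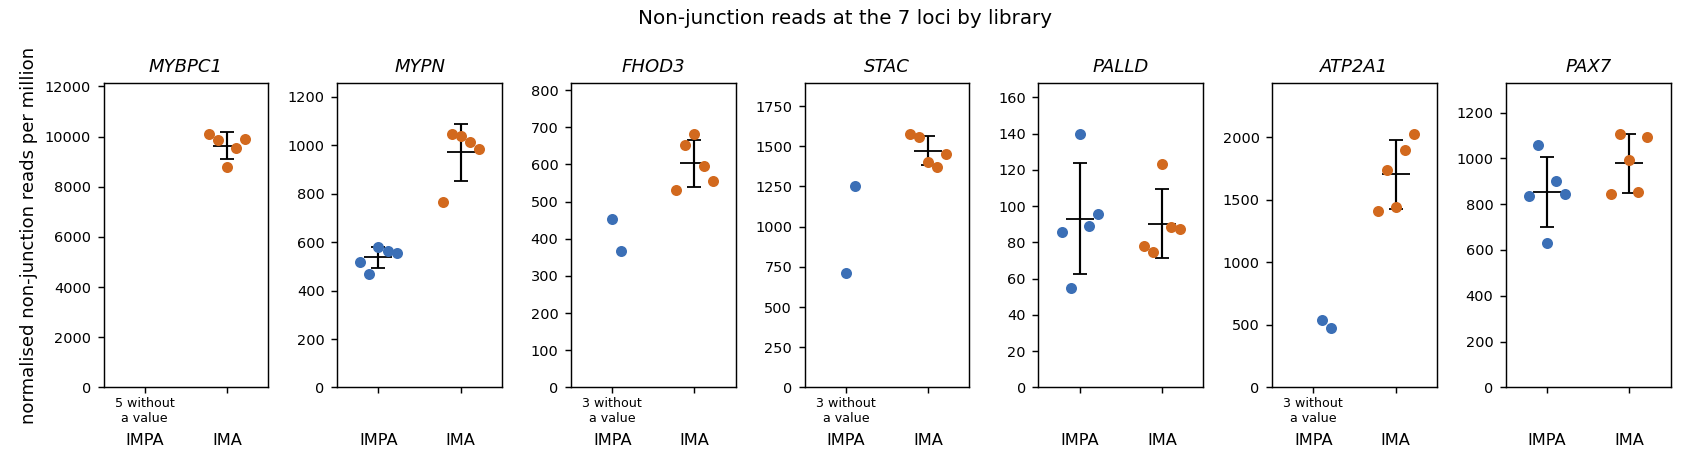
Normalised non-junction reads per 1000000 in each library, 1 panel for each locus with its own y axis from 0. Points are libraries, marks and bars are mean and SD where at least 3 libraries have a value, and the number of libraries without a value is printed under the group. MYPN lay at 470 to 578 in IMPA and at 765 to 1048 in IMA, while PALLD and PAX7 overlapped and MYBPC1 has no IMPA value.

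FHOD3 encodes a formin that takes part in assembling actin filaments in the sarcomere. Its circle had 0, 0, 2, 2 and 0 junction reads in IMPA and 6, 5, 3, 4 and 6 in IMA. The groups did not overlap, as for 2.24% of circRNAs tested, and the gap between the nearest libraries was 1 read. These reads count as used in the choice of genes, so nothing is read from that share. The levels were 63.1 ± 86.6 and 442 ± 131 normalised TPM, and the ratio of summed reads (24 against 4) was 7.19 with a counting interval of 2.47 to 28.5.

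Linear reads at FHOD3 can be compared with IMPA libraries 3 and 4 alone, those in which the circle was called. These held 94 and 74 non-junction reads against 75, 87, 117, 74 and 76 in IMA. In normalised reads they were 453 and 366 per 1000000, below all IMA libraries (531 to 683, mean 603 ± 64.0). Such separation held for 45.5% of the 11 loci with values in 2 IMPA and 5 IMA libraries. Without the genes described here it held for 25.0% of the remaining 8. Against all 5 IMPA libraries the mean level of the circle was 7.01 times as high in IMA. Against IMPA libraries 3 and 4 the IMA mean was 1.47 times as high in linear reads and 2.81 times as high in the circle. The share was 4.08% and 5.13% in those IMPA libraries and 4.88% to 13.8% in IMA, which overlapped.

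PALLD encodes palladin, an actin-associated protein that is related to myopalladin and is also made outside muscle. The junction reads were 5, 3, 3, 5 and 2 in IMPA and 9, 5, 14, 4 and 3 in IMA, with overlap. The levels were 279 ± 114 and 614 ± 340 normalised TPM. The count ratio was 2.33 (1.28 to 4.37), with 14 of the 35 IMA reads in IMA3.

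Linear PALLD reads were few and overlapped between the groups. Non-junction reads were 18, 10, 29, 18 and 24 in IMPA and 11, 10, 21, 11 and 12 in IMA, or 93.0 ± 30.6 and 90.3 ± 19.0 normalised reads per 1000000. The fitted difference of -0.03 on the log2 scale (SE 0.22) changed its sign in 5 of 18 other settings. The circular share was 28.1% ± 11.3 in IMPA and 48.9% ± 11.5 in IMA, where 4 libraries lay above all of IMPA and IMA5, at 33.3%, lay within its range. In every library this share was higher than that of 71.7% to 96.7% of loci, the opposite end from MYBPC1.

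**Figure D3:**
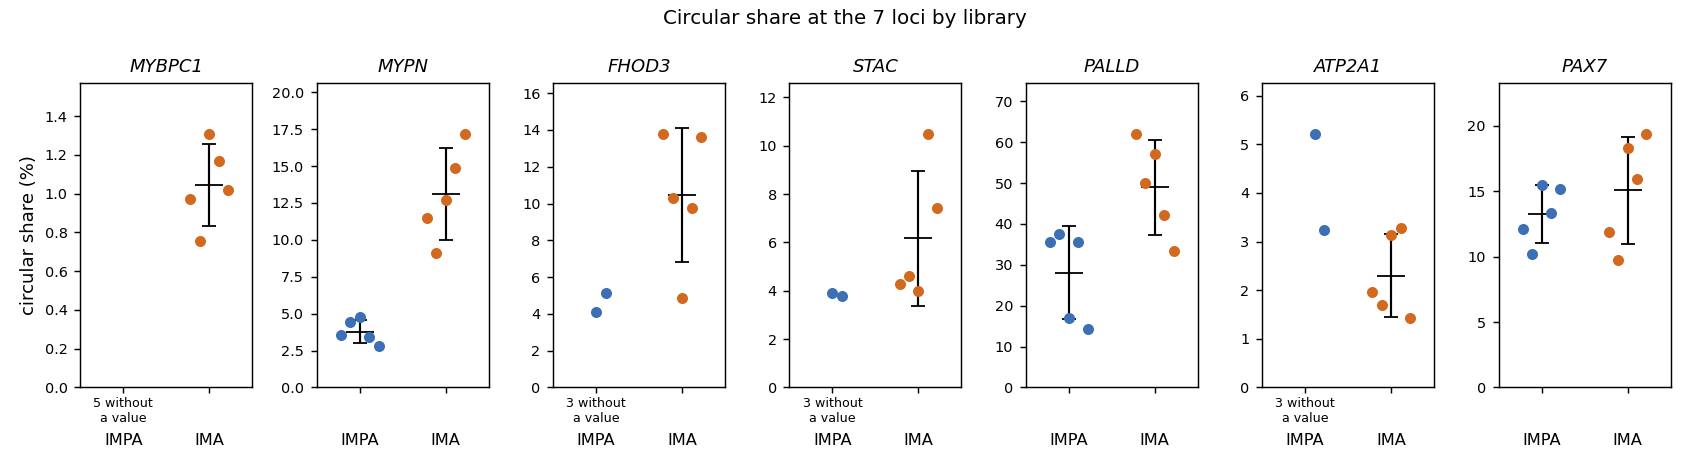
Circular share in percent in each library, 1 panel for each locus with its own y axis from 0. Points are libraries, marks and bars are mean and SD where at least 3 libraries have a value, and missing values are counted under the group. Only MYPN, among the 3 loci with values in all 10 libraries, had every IMA share above every IMPA share.

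STAC encodes an adaptor with an SH3 domain whose family binds voltage-gated calcium channels, and STAC3 of that family serves excitation-contraction coupling. The place of STAC itself in muscle was not checked. Its circle had 0, 0, 3, 5 and 0 junction reads in IMPA and 5, 5, 5, 10 and 8 in IMA. In normalised TPM the highest IMPA library, at 417, lay above the lowest IMA library, at 400, so the groups overlapped. The levels were 128 ± 188 and 615 ± 260 normalised TPM, and the count ratio was 4.94 (2.24 to 12.4).

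The 2 IMPA libraries with a value for linear STAC were far apart, with 148 non-junction reads in IMPA3 and 254 in IMPA4 against 223, 208, 240, 171 and 199 in IMA. In normalised reads these were 713 and 1256 per 1000000, below the 1374 to 1579 of IMA (mean 1473 ± 91.8). Such separation held for 45.5% of the 11 loci with values in 2 IMPA and 5 IMA libraries. Without the genes described here it held for 25.0% of the remaining 8. Against all 5 IMPA libraries the mean level of the circle was 4.81 times as high in IMA. Against IMPA3 and IMPA4, in which it was called, the IMA mean was 1.5 times as high in linear reads and 1.92 times as high in the circle. The fitted log2 difference of 0.64 (SE 0.19) became 0.23 without IMPA3 and 1.04 without IMPA4. The share was 3.90% and 3.79% in IMPA and 4.0% to 10.5% in IMA.

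ATP2A1 encodes SERCA1, the calcium pump of the sarcoplasmic reticulum in fast muscle fibres. Its circle was the rarest of the 7 in IMA, with 2, 2, 4, 4 and 2 junction reads against 0, 0, 0, 3 and 2 in IMPA. The groups overlapped at 255 ± 100 and 76.4 ± 113 normalised TPM, and the count ratio was 3.36 (1.14 to 11.9).

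At ATP2A1 the linear reads were separated against 2 IMPA libraries. This held for 45.5% of the 11 loci with values in 2 IMPA and 5 IMA libraries. Without the genes described here it held for 25.0% of the remaining 8. The circle was not separated, with 2 to 4 reads where called, at or near the smallest count of 2. IMPA libraries 4 and 5 held 109 and 120 non-junction reads, and the IMA libraries 199, 232, 247, 236 and 278. Normalised, these were 539 and 478 per 1000000 against 1409 to 2030 (mean 1703 ± 273), 3.35 times as high. Against the same 2 IMPA libraries (mean 191 normalised TPM), the only ones in which the circle was called, the circle was 1.33 times as high in IMA. Against all 5 IMPA libraries the mean level of the circle was 3.34 times as high, and linear reads have no such value. The circle and linear ratios over 2 libraries therefore do not show whether the circle moved less. The share was 5.22% and 3.23% in IMPA and 1.42% to 3.28% in IMA, the one locus with values in both groups where the mean share was lower in IMA. The 3 IMPA libraries with 0 junction reads do not enter that mean.

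PAX7 encodes the transcription factor that marks satellite cells. Its circle was the most read of the 7, with 12, 11, 12, 14 and 19 junction reads in IMPA and 8, 8, 19, 10 and 18 in IMA. The levels of 1028 ± 171 and 1140 ± 460 normalised TPM overlapped, and the count ratio was 1.11 (0.776 to 1.59). The fitted log2 difference was 0.13 (SE 0.25) and turned to -0.03 without IMA5.

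Linear PAX7 overlapped too. Non-junction reads were 175, 194, 131, 182 and 212 in IMPA and 119, 148, 170, 106 and 150 in IMA, or 854 ± 154 and 978 ± 128 normalised reads per 1000000. The share was 13.3% ± 2.21 and 15.0% ± 4.12. PAX7 reads were thus present in both groups at levels that did not separate them.

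The fitted differences can be placed among those of all loci. All 7 were among the 1294 circRNAs with reads in at least 5 libraries, MYBPC1 through its IMA libraries alone. In the edgeR fit 0.927% of these 1294 were called at an adjusted p under 0.01 (6 or 0.464% higher and 6 or 0.464% lower in IMA), and MYBPC1 and MYPN were among the 6 that were higher. This was the contrast that led to the choice of genes, so nothing is read from that count. The fitted log2 differences were 2.31 for MYBPC1 (SE 0.37), 1.74 for MYPN (SE 0.33), 1.42 for STAC (SE 0.43), 1.41 for FHOD3 (SE 0.41), 0.85 for PALLD (SE 0.36), 0.80 for ATP2A1 (SE 0.42) and 0.13 for PAX7 (SE 0.25), which was 419th of the 1294. A prior count of 2 draws these values toward 0, below the ratios of the counts. The median was 1.41 over the 7, which the choice of genes sets in part, and -0.07 over all 1294. MYPN was not called with limma voom, and neither circle passed the filter of filterByExpr or had an adjusted p from the DESeq2 Wald test.

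For linear reads the background was wider. Of the 690 loci with complete values edgeR called 21.7% (80 or 11.6% higher and 70 or 10.1% lower in IMA), and of the 3 genes with complete values MYPN was called, with PALLD and PAX7 not. The MYPN log2 difference of 0.84 (SE 0.10) was the 5th highest of the 690, and PAX7 had 0.20 (SE 0.11). With missing values left out, limma called 12.3% of 1264 loci (5.78% higher and 6.49% lower in IMA). ATP2A1, with 1.73 (SE 0.16), had the 3rd highest log2 difference of these and was called, as was MYPN, while STAC, FHOD3 (0.56, SE 0.13), PALLD and PAX7 were not. The non-junction reads of the chosen genes count as used in the choice, so nothing is read from their edgeR or limma calls. The IMPA values of ATP2A1, STAC and FHOD3 come only from libraries in which the circle was called. Of 11 loci with values in 2 IMPA and all 5 IMA libraries, 5 (45.5%) had every IMA value above both IMPA values, and these were the 3 genes and 2 of the other 8 loci.

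**Figure D4:**
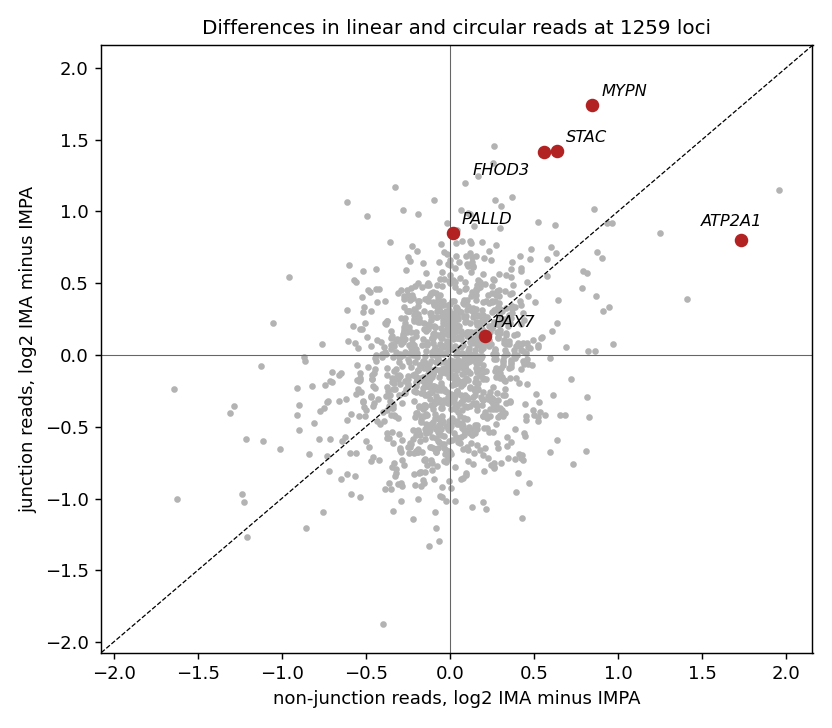
Fitted log2 difference (IMA minus IMPA) in junction reads from edgeR on the y axis against that in non-junction reads from limma on the x axis, 1 point for each of 1259 loci, with 6 of the 7 loci in red and a dashed line of equal difference. Junction values are drawn toward 0 by the prior count, and the IMPA values of ATP2A1, FHOD3 and STAC in non-junction reads come from 2 libraries each while their junction values use all 5. Of all 1259 loci, 571 lie above the line. MYPN, FHOD3, STAC and PALLD are among those above it, ATP2A1 lies below it and PAX7 close to the origin. MYBPC1 has no value for linear reads in IMPA and is absent.

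Levels in IMA alone can be set side by side for all 7, since each has values in all 5 IMA libraries, as have 852 loci. The mean non-junction reads per IMA library were 1359 at MYBPC1, 238 at ATP2A1, 208 at STAC, 139 at PAX7, 137 at MYPN, 85.8 at FHOD3 and 13 at PALLD, with a median of 120 over the 852 loci. As CIRI2 defines them, these reads are counted at the circle's splice sites and not over the gene. Whether the deposited values follow that definition could not be checked. Across complete loci the reads were almost unrelated to the span of the circle (Spearman rho 0.0796 over 690 loci, as a description). PAX7 and MYPN differed by less than their spread. The mean share ran nearly the other way, from 1.04% at MYBPC1 and 2.30% at ATP2A1 to 48.9% at PALLD, with a median of 11.2% over the loci. The share holds the non-junction reads in its denominator, so the opposite orders are not independent.

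**Figure D5:**
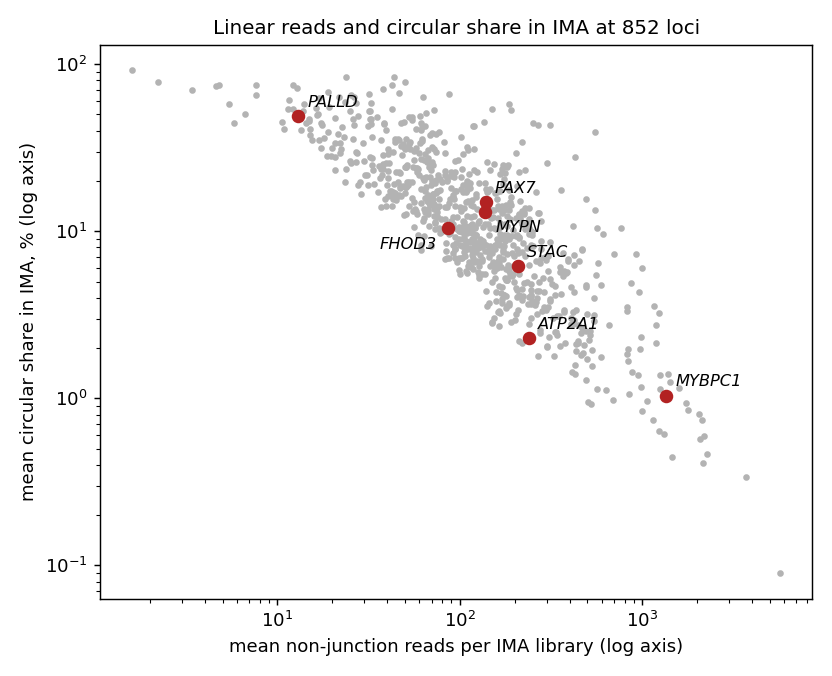
Mean circular share in percent against mean non-junction reads per IMA library, both on log axes, 1 point for each of 852 loci with values in all 5 IMA libraries and the 7 loci in red. MYBPC1 lies at the high end of linear reads with a share of 1.04%, and PALLD at the low end with 48.9%.

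In a list of 144 striated muscle genes, 10 (6.94%) have a circRNA in the table. Of the 136 list genes found in RefSeq these are 7.35%, beside 937 of 20572 protein-coding goat genes there (4.55%). Nothing is read from the higher share, since the choice of genes sets it in part. The 10 are the 7 described here, which were chosen among genes that have one, and 3 of the 137 others: UTRN, for utrophin, with 4, and DAG1, for dystroglycan, and ASPH, whose products include junctin, with 1 each. No circRNA came from any of 19 thin filament genes or 8 genes of muscle metabolism, and MYBPC1 was the one gene of 24 in the thick filament and M band class with a circle. In junction reads 0 of these other 6 circRNAs passed edgeR at an adjusted p of 0.01, and 1 had an unadjusted p under 0.05, as had 13.3% of all 1294. Limma voom also called 0 of them, and the DESeq2 Wald test gave none of them an adjusted p. Their median log2 difference was -0.32.

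The circRNA with that unadjusted p was DAG1 (log2 difference 1.17, SE 0.39, edgeR's adjusted p = 0.138). It had 0 to 4 junction reads in IMPA and 5 to 8 in IMA, which did not overlap, as for 2.24% of circRNAs tested. Its normalised non-junction reads were 712 ± 96.7 in IMPA (n = 4) and 582 ± 164 in IMA (n = 5) per 1000000, a limma log2 difference of -0.33 (SE 0.20, adjusted p = 0.248). The share of DAG1 was 2.38% to 6.84% over 4 IMPA libraries and between 10.2% and 17.8% in IMA. Such separation held for 4.93% of the 690 loci with complete values, of which DAG1 is not one. The 4 circles of UTRN had log2 differences between -0.68 and -0.26, none of which passed the test.

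In linear reads 0 of the 3 other muscle loci with complete values passed edgeR at an adjusted p of 0.01. ASPH came closest, at a log2 difference of 0.16 (SE 0.05, edgeR's adjusted p = 0.0143), with normalised non-junction reads of 10041 ± 384 in IMPA and 11211 ± 406 in IMA per 1000000 that did not overlap. Such separation, with IMA above, held for 12.2% of the 690 loci. The junction reads of ASPH overlapped (log2 difference 0.07, SE 0.28, edgeR adjusted p = 0.937). 1 of the 3 had an unadjusted p under 0.05, as had 44.8% of the 690 loci.

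Over the 10 libraries, the loci whose normalised non-junction reads were most like those of MYPN were RAB12, USP13 and MNAT1, with Pearson's r of 0.954, 0.948 and 0.947. These are descriptions over libraries that also share the group difference.

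The deposited miRNA pairs are predictions from sequence, as names without scores or sites. They hold 15242 pairs, of which 98 involve the 7 circles with 85 different miRNAs. MYPN was paired with 27 miRNAs, more than 99.2% of circRNAs, and ATP2A1 with 19, more than 92.2%. MYBPC1 had 14, PALLD and PAX7 had 13 each, STAC 7 and FHOD3 5. The median was 13 over the 7 and 9 over all circRNAs.

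The circles shared few of these miRNAs. None was paired with 3 or more of the 7, and 13 were paired with 2. The 5 miR-30 names among them (miR-30a-5p, miR-30b-5p, miR-30c-5p, miR-30e-5p and miR-30f-5p), named here after the pairs were seen, were all paired with MYBPC1 and MYPN, and each was paired with 1.66% to 2.19% of all circRNAs. Names of one miRNA family are near copies in sequence and are not separate evidence.

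Of the miRNAs known for their abundance in muscle, 8 names occur in the pairs. PAX7 was paired with miR-133a-3p, miR-133a-5p and miR-133b, and PALLD with miR-206. No circle of the 7 was paired with miR-1, miR-208b, miR-499-3p or miR-499-5p. At least 1 of the 8 names was paired with 12.6% of all circRNAs and with 2 of the 7.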

How the data were processed

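The 10 libraries were grouped by their labels. The authors removed ribosomal RNA, mapped filtered reads with HISAT2 and kept circRNAs found at the same location by find_circ (read count of at least 2) and CIRI2. The junction read counts were deposited by the authors without normalisation. Their deposited TPM values are counts per 1000000 junction reads without a length term (differing from that formula by at most 4.99e-06). Other deposited values are non-junction reads, positions and predicted miRNA pairs. How non-junction reads were counted and the tool versions are not given in the sources used here. Columns of 10 further libraries named in the annotation were not used.

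The members and gene lists were chosen with earlier results of these data known. The named genes are the 7 chosen by name, the other listed muscle genes with a circRNA, the 3 loci most like MYPN, and PLIN2, added after its values were seen. A rule for the loci most like MYBPC1 could not be applied, since IMPA values are missing. Gene IDs of all 7 matched RefSeq symbols.

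Junction counts were fitted with edgeR 4.0.16 in R 4.3.3 (TMM, glmQLFit, prior count of 2) over circRNAs with reads in at least 5 libraries, with Benjamini-Hochberg adjustment at 0.01. Non-junction reads were to be fitted with the same filter, but 1345 missing values restricted edgeR to 690 loci. A limma 3.58.1 fit on log2 values (pseudocount 0.5, at least 2 values per group) over 1264 loci was added after seeing the data. DESeq2 1.42.0 was an alternative. Counting intervals are exact binomial ones. On simulated data, the junction fit called 76.6% of 197 changed circRNAs of 1290 and the non-junction fits 100% of 200 among 690 (edgeR) and 1264 (limma) loci, all changed 4-fold. The simulation used set dispersions, and its missing values were placed as in the data, whatever the simulated level. It therefore does not check limma for values that are missing because the circle was not called. Replicates differed by more than counting noise (largest chi-square p = 0.00071).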

Additional observations from a re-analysis of the deposited data

Results flagged for a closer look

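Dixon's rule for single values far from their group was applied to 33 groups of values of the 7 loci, of which chance flags about 1 in 20. The normalised non-junction reads of MYPN in IMA1, at 765 per 1000000, lay far below the other IMA libraries (986 to 1048) and still above all IMPA libraries. Without IMA1 the fitted log2 difference of MYPN stayed within 0.80 to 0.91, its range over all fits that leave out 1 library. The normalised non-junction reads of PALLD in IMA3, at 123 per 1000000, lay far above the other IMA libraries (74.9 to 88.4). Without IMA3 the log2 difference of linear PALLD was -0.17. IMA3 also held the most junction reads of PALLD in any library, at 14, and without it the log2 difference in junction reads was 0.59.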

How the results depend on the processing

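Over all circRNAs, the 6 junction calls that were higher in IMA became 3 with filterByExpr and 3 with the DESeq2 Wald test, which gave an adjusted p for 115 of 1294 circRNAs, and were 5 to 6 without single libraries. The 6 that were lower became 2 without TMM, 1 with uniquely mapped reads as library sizes, 10 with the Wald test and 13 at a threshold of 0.05, and were 1 (without IMA4) to 6 without single libraries, with 3 without IMPA1 or IMPA5 and 2 without IMA1 or IMA2. The 80 linear calls that were higher became 48 without TMM, 49 with uniquely mapped reads and 127 at 0.05, and the 70 that were lower became 106 without TMM and 119 at 0.05. Without single libraries these were 54 to 75 and 55 to 70. Scaling by uniquely mapped reads moved the median junction difference of all circRNAs from -0.07 to 0.13 on the log2 scale. For the other muscle genes, 1 linear call (ASPH) appeared with the DESeq2 Wald test, with voom, with the replicate block and at 0.05. The cause of these changes was not tested.

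For the 7 circles, 223 log2 differences and circular shares were computed under other settings, of which 202 moved by less than the spread of the libraries, 21 moved by more (the Wald test, voom, the replicate block, STAC without IMPA3 or IMPA4, and shares without the factor of 2), and no called value changed its sign. MYBPC1 was tested only with all 5 IMA libraries. A fit of non-junction reads without a filter was not run, because values are missing. Replicate numbers did not pair the samples (residual correlations of -0.0429 to 0.0144 in junction and -0.101 to 0.0851 in non-junction reads), and with the replicate number as a block 6 junction calls were higher and 5 lower, with 93 and 80 in linear reads.

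The circles of the 7 genes had 2 to 19 reads where called, and intervals cover counting error only, as reads carry no molecular identifiers. Linear values are missing in 3 IMPA libraries at 3 loci and in all 5 at MYBPC1.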
